A study of Mus musculus with 12 samples.

Results

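The genes described here are 9 cathepsins (Ctsb, Ctsc, Ctsd, Ctsf, Ctsh, Ctsk, Ctsl, Ctss and Ctsz) and the asparaginyl protease legumain (Lgmn), 10 genes in all among the 25867 with a symbol in the count table. They were chosen by name, as proteases of the lysosome that take part in antigen processing, and all 10 passed the filter on low counts. The RNA came from sorted thymic epithelial cells (TECs), which form the framework of the thymus, out of organ cultures of C57BL/6 fetal lobes. The lobes were taken at E15.5, depleted of thymocytes for 4 to 5 days with 1.35 mM 2'-deoxyguanosine, and then given 10 µg/mL of an agonist antibody to RANK for 3 days, which brings on the medullary regulator AIRE. The 12 libraries fell into 4 groups of 3 biological replicates. The knockout cultures carried floxed Kat7 alleles and RosaCre-ERT2, a tamoxifen-activated Cre that is expressed from the broadly active Rosa26 locus and is therefore not restricted to TECs, and they received tamoxifen. The control cultures also received tamoxifen, and their labels give the genotype as control without saying whether it carries the Cre or the floxed alleles. The WM-3835 cultures were wild type and received that compound, an inhibitor of the histone acetyltransferase KAT7 (also called HBO1), at a dose and for a time that the labels leave out. Titles of those samples spell the compound WM-3825, whereas their treatment field and the design text give WM-3835. The DMSO cultures were wild type and received the solvent.

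Cathepsins are made as inactive precursors, sorted to endosomes and lysosomes, and activated there at low pH. Most are cysteine proteases of the papain family, whereas cathepsin D is an aspartic protease and legumain belongs to a separate cysteine protease family. In antigen-presenting cells they cut the invariant chain that blocks the groove of class II molecules and cut the proteins that supply its peptides. In the mouse thymus, cathepsin L does this in cortical TECs, which select T cells able to recognise class II, and cathepsin S is the invariant chain protease of dendritic cells and B cells and is also made by medullary TECs.

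The libraries held 26656847 to 52368012 counts, and no member had fewer than 36 counts in a library. Kat7 averaged 0.762 ± 0.138 CPM (counts scaled to library size, with TMM factors) in knockout libraries and 80.5 ± 7.38 CPM in control libraries (SD, n = 3 each), as the labels state. The 5 epithelial markers summed to 9729 to 10180 CPM in knockout, 9624 to 11015 CPM in control, 7202 to 7984 CPM in WM-3835 and 7400 to 9085 CPM in DMSO libraries, so the sorted cells were epithelial by these genes. Both the 10 cortical and the 12 medullary TEC markers were present in every group. Xist, the RNA of the inactive X chromosome, was low in all control libraries and in knockout library 3 and high in all other libraries. It stood at 1709, 1191 and 4.94 CPM in knockout libraries 1, 2 and 3. In control libraries it was at 2.34 to 3.17 CPM, and in the WM-3835 and DMSO libraries at 846 to 2118 CPM. Comparisons with the control libraries therefore also compare libraries with different Xist levels. For this reason, other fits took knockout library 3 as the only knockout library or Xist as a covariate. Where these changed the knockout call of any of the 10 proteases, the value is given. For other genes such values are given only in part, and for the counts of cell type markers not at all.

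Ctsl was by far the most abundant of these transcripts. In RPKM, which is CPM divided by gene length and so allows genes to be compared, it averaged 2577 ± 325 in knockout, 2529 ± 487 in control, 2139 ± 88.2 in WM-3835 and 3979 ± 227 in DMSO libraries (SD, n = 3 each). It ranked between 2 and 12 among the 25867 genes of a library, took 0.398% to 0.834% of all counts, and made up 81.4% to 91.1% of the summed RPKM of the 10 proteases. Ctsd, the aspartic protease, was second in every group, at 127 RPKM in knockout, 156 RPKM in control, 129 RPKM in WM-3835 and 128 RPKM in DMSO libraries. Ctsl stood 20.3-fold above Ctsd in knockout, 16.2-fold in control, 16.5-fold in WM-3835 and 31.0-fold in DMSO libraries, and no library of one gene reached a library of the other.

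Below Ctsd the order depended on the group. In control libraries it ran Ctsz (102 RPKM), Ctsh (74.4), Ctsb (52.4), Lgmn (43.0), Ctsc (38.03), Ctss (28.8), Ctsf (14.2) and Ctsk (1.47), and of these neighbours only Ctsb with Lgmn and Lgmn with Ctsc overlapped in their libraries. In knockout libraries Ctsb (45.0 RPKM) stood above Ctsh (37.3), which overlapped Ctsc (33.0), and Lgmn (24.9) overlapped Ctss (20.3). In DMSO libraries Lgmn (49.3 RPKM), Ctsh (43.0) and Ctsb (41.6) overlapped in turn. In WM-3835 libraries Ctsb (69.3 RPKM) followed Ctsd, Ctsz (54.9) overlapped Lgmn (53.8), Ctsh (29.1) overlapped Ctsc (28.1), and Ctss (13.3) fell into the range of Ctsf (14.0). Ctsk, the collagen-degrading cathepsin of osteoclasts, was last in every group, with 36 to 111 counts per library.

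**Figure D1:**
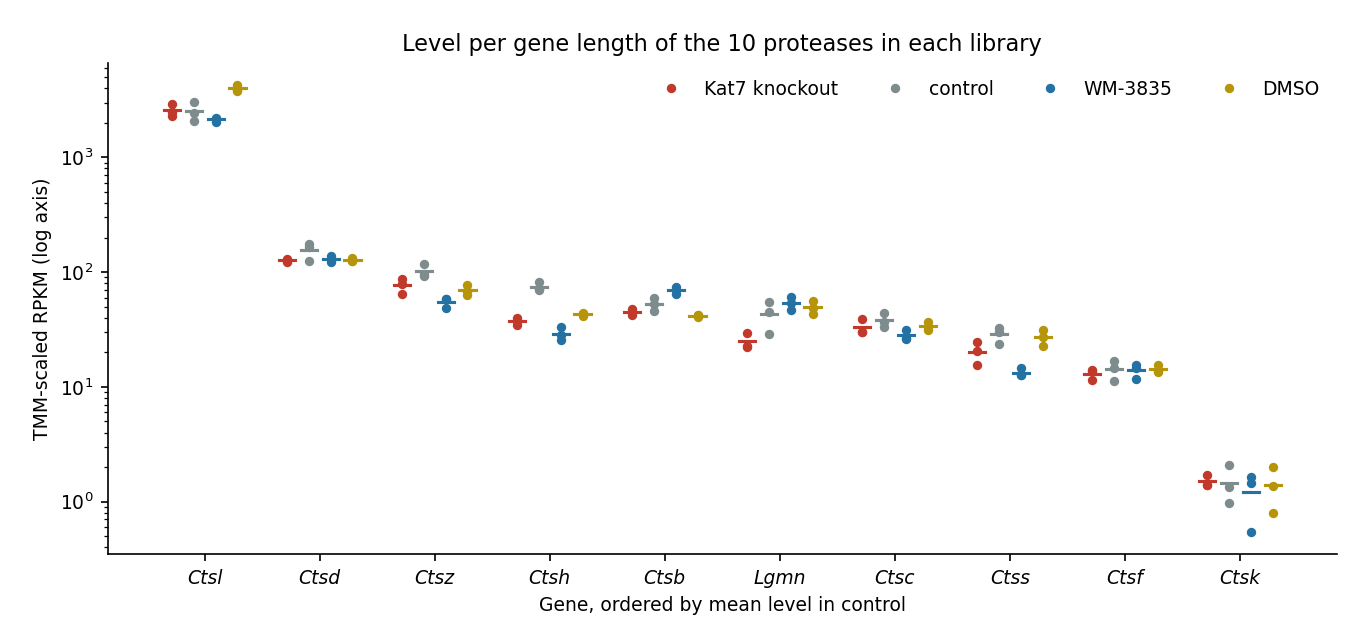
TMM-scaled RPKM (log axis) of the 10 proteases, ordered by their mean in control, with 1 point per library and a bar at each group's mean. Ctsl has a mean of 2139 to 3979 RPKM, and Ctsk lies at the bottom with a mean of 1.21 to 1.50 RPKM.

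The 8 papain-family members share a stretch around the catalytic cysteine, and it is shown here because reads of similar genes can be confused. The 10 codons around that cysteine, from the GENCODE gene models on GRCm38 (the assembly also called mm10), read as follows for 7 of them, with the cysteine codon in capitals. The Ctsl stretch lies in exon 6 at chr13:64367063-64367092 on the minus strand, the Ctss stretch in exon 5 at chr3:95545333-95545362 on the plus strand, and the Ctsh stretch in exon 6 at chr9:90064507-90064536 on the plus strand; those of Ctsb and Ctsc cross an exon junction.
Ctsl: ggccagtgcgggtctTGTtgggcgtttagc
Ctsk: ggccagtgtggttccTGTtgggctttcagc
Ctsb: ggctcctgcggctctTGTtgggcatttggg
Ctss: ggttcttgtggtgccTGCtgggctttcagt
Ctsz: cagtactgtggttccTGCtgggcccacggc
Ctsh: ggggcctgtggcagcTGCtggactttctct
Ctsc: gaatcttgtggaagcTGCtactcatttgcc
Of the 30 bases, 25 in Ctsk, 23 in Ctsb, 18 in Ctss, 16 in Ctsz, 14 in Ctsh and 13 in Ctsc were identical to Ctsl. Even in this conserved stretch the genes differ, and no member shared a stretch of 75 bases, the read length, with another member. Ctsl shared 21 of 6094 such stretches with other genes, Ctsb 700 of 4669 with Fdft1, and the other 8 members none. The Ctsl transcript searched was 6168 bases long, whereas the deposited gene length used for its RPKM was 1971 bases. Exons of Ctsb overlap those of Fdft1, a gene of cholesterol synthesis on the opposite strand, over 774 bases or 16.3% of the Ctsb exons, and the library kit does not mark strand, so reads there cannot be assigned to one gene.

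Knockout of Kat7 went with lower RNA of 5 of the 10 proteases: Ctsh, Lgmn, Ctss, Ctsz and Ctsd. None was higher. Across all 18670 genes tested, 14.2% were called in this comparison, 8.06% lower and 6.12% higher, at a Benjamini-Hochberg adjusted p under 0.05 in edgeR's quasi-likelihood test. The median log2 fold change was -0.26 over the 10 proteases and -0.01 over all genes. Ctsl was not among the 5. As these are bulk samples, fewer cells of a type and less RNA per cell cannot be told apart.

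Ctsh, cathepsin H (chr9:90054267-90076095), an aminopeptidase, had the largest and steadiest decrease. It stood at 55.6, 64.3 and 61.5 CPM in knockout libraries, against 134, 113 and 115 CPM in control libraries, with no overlap between the groups. Its log2 fold change was -0.998 (SE 0.1002, adjusted p = 4.25e-06, edgeR). With knockout library 3 alone it was -0.96 (adjusted p = 0.00472), and with Xist as a covariate -0.98 (adjusted p = 0.00588).

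Lgmn (chr12:102394082-102439728), which cuts after asparagine and also trims cathepsin precursors, stood at 41.7, 55.8 and 42.3 CPM in knockout libraries, against 102, 85.03 and 54.5 CPM in control libraries. The highest knockout library lay just above the lowest control library, and the control libraries were spread widely. The log2 fold change was -0.79 (SE 0.174, adjusted p = 0.00534, edgeR). It kept its size but not its call with knockout library 3 alone (-0.92, adjusted p = 0.0754) and with Xist as a covariate (-0.96, adjusted p = 0.0852).

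Ctsz, Ctss and Ctsd had smaller decreases. Ctsz (cathepsin Z, a carboxypeptidase; chr2:174427494-174439039) stood at 90.1, 110 and 120 CPM in knockout libraries, against 129, 163 and 135 CPM in control libraries, without overlap (log2 fold change -0.42, SE 0.114, adjusted p = 0.0202, edgeR). Ctsz and Ctsh were thus the members whose 3 knockout libraries all lay below the 3 control libraries, as did 13.5% of all genes tested. Ctss stood at 33.5, 27.9 and 20.9 CPM in knockout libraries, against 44.1, 40.8 and 32.1 CPM in control libraries, with 1 knockout library inside the control range (-0.50, SE 0.165, adjusted p = 0.0480). Ctsd (chr7:142375910-142387827) stood at 248, 240 and 256 CPM in knockout libraries, against 346, 323 and 245 CPM in control libraries (-0.30, SE 0.0972, adjusted p = 0.0480). For Ctsd the difference came from control libraries 1 and 2, since control library 3 lay inside the knockout range.

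These 3 calls were close to the threshold. Fitted on the 6 libraries of this comparison alone, the adjusted p was 0.0515 for Ctsz, 0.121 for Ctss and 0.118 for Ctsd, and with limma-voom that of Ctsd was 0.0541. With Xist as a covariate the log2 fold change of Ctsz was -0.18 (adjusted p = 0.611), that of Ctss -0.90 (adjusted p = 0.0591) and that of Ctsd -0.25 (adjusted p = 0.438). With knockout library 3 alone they were -0.23 for Ctsz (adjusted p = 0.442), -0.89 for Ctss (adjusted p = 0.0368) and -0.24 for Ctsd (adjusted p = 0.426). Leaving out knockout library 2 ended all 3 calls, with adjusted p of 0.0568 for Ctsz, 0.114 for Ctss and 0.159 for Ctsd. Without knockout library 1 the calls of Ctsz (0.119) and Ctsd (0.126) ended, without knockout library 3 those of Ctss (-0.33, adjusted p = 0.206) and Ctsd (0.0932), and without control library 2 those of Ctsz (0.0958), Ctss (0.106) and Ctsd (0.146). Without control library 1 the calls of Ctss (-0.40, adjusted p = 0.153) and Ctsd (-0.19, adjusted p = 0.210) ended. The calls of Ctsh and Lgmn held without any 1 of the 6 libraries.

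The other 5 members did not pass the test in the knockout. Ctsl stood at 5783, 4923 and 4532 CPM in knockout libraries, against 4825, 6014 and 4115 CPM in control libraries, a log2 fold change of 0.03 with a 95% interval of -0.19 to 0.25 (adjusted p = 0.896). Ctsb, a cysteine endopeptidase and dipeptidase, stood at 201, 225 and 214 CPM in knockout libraries, against 280, 248 and 217 CPM in control libraries (-0.22, adjusted p = 0.0948), and without control library 3 it was called lower (-0.30, adjusted p = 0.0189). Fdft1, with which Ctsb shares exon bases, was called lower in the knockout (59.3 ± 2.82 CPM in knockout, 76.3 ± 3.71 CPM in control libraries, log2 fold change -0.36, adjusted p = 0.00596), and its part in the Ctsb value was not tested. Ctsc, the dipeptidyl peptidase that activates granule proteases, had a log2 fold change of -0.20 (interval -0.45 to 0.04). Ctsf, another papain-family endopeptidase, had -0.13 (interval -0.44 to 0.19), and Ctsk 0.03 (interval -1.03 to 1.09). The interval of Ctsk was the widest of the 10, so a change of the size seen for Ctsh was not detectable at its depth.

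With WM-3835 the members that passed the test were partly others. Of the 10 proteases, Ctss, Ctsl, Ctsh and Ctsz were lower than in DMSO and Ctsb was higher. Across all genes tested, 18.7% were called, 9.35% lower and 9.34% higher. The lower genes were 50.03% of the calls with TMM scaling and 60.1% with upper-quartile scaling. The groups did not overlap for all 5 called members, 4 lower and 1 higher; among all genes tested 23% lay wholly lower and 23.1% wholly higher. The median log2 fold change was -0.23 over the 10 proteases and -0.0092 over all genes.

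Ctss (chr3:95526786-95556405) had the largest decrease. It stood at 17.2, 19.8 and 17.1 CPM in WM-3835 libraries, against 31.0, 42.2 and 37.0 CPM in DMSO libraries, a log2 fold change of -1.02 (SE 0.167, adjusted p = 2.40e-04, edgeR). Ctsl (chr13:64361890-64370772) stood at 4023, 4362 and 4260 CPM in WM-3835 libraries, against 8355, 7642 and 7530 CPM in DMSO libraries. Its log2 fold change was -0.90 (SE 0.105, adjusted p = 8.00e-06). For both invariant chain proteases all 3 treated libraries lay below all 3 solvent libraries.

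Ctsh stood at 41.8, 46.2 and 54.0 CPM in WM-3835 libraries, against 72.1, 69.8 and 67.4 CPM in DMSO libraries (log2 fold change -0.56, SE 0.1002, adjusted p = 5.44e-04, edgeR). Ctsz stood at 67.7, 80.9 and 80.8 CPM in WM-3835 libraries, against 87.3, 107 and 95.3 CPM in DMSO libraries (-0.34, SE 0.115, adjusted p = 0.0482). Of the 4 decreases, that of Ctsz lay closest to the threshold: its call ended with limma-voom (adjusted p = 0.0601), without WM-3835 library 1 (-0.26, adjusted p = 0.226), 2 (adjusted p = 0.0640) or 3 (0.0686) and without DMSO library 2 (-0.26, adjusted p = 0.218) or 3 (0.0940). The calls of Ctsb, Ctsh, Ctsl and Ctss held under all 16 alternatives tried for this comparison.

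Ctsb (chr14:63122462-63145923) moved the other way. It stood at 329, 305 and 352 CPM in WM-3835 libraries, against 199, 193 and 199 CPM in DMSO libraries, with a log2 fold change of 0.74 (SE 0.0854, adjusted p = 7.30e-06, edgeR). The treated libraries all lay above every other library in the study for this gene. Fdft1, whose exon overlaps that of Ctsb, averaged 74.2 CPM in WM-3835 and 68.5 CPM in DMSO libraries (log2 fold change 0.11, adjusted p = 0.384).

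Lgmn stood at 101, 88.4 and 113 CPM in WM-3835 libraries, against 106, 80.7 and 90.7 CPM in DMSO libraries, with overlapping groups (log2 fold change 0.12, interval -0.23 to 0.48, adjusted p = 0.704, edgeR). Ctsd stood at 240, 248 and 270 CPM in WM-3835 libraries, against 262, 244 and 247 CPM in DMSO libraries (0.01, interval -0.19 to 0.21). Ctsc had a log2 fold change of -0.26 (interval -0.51 to -0.02, adjusted p = 0.139; 0.0207 when fitted to these 6 libraries, 0.0103 under quality weights), Ctsf -0.02 (interval -0.34 to 0.29) and Ctsk -0.20 (interval -1.26 to 0.86). None of these 5 passed the test.

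**Figure D2:**
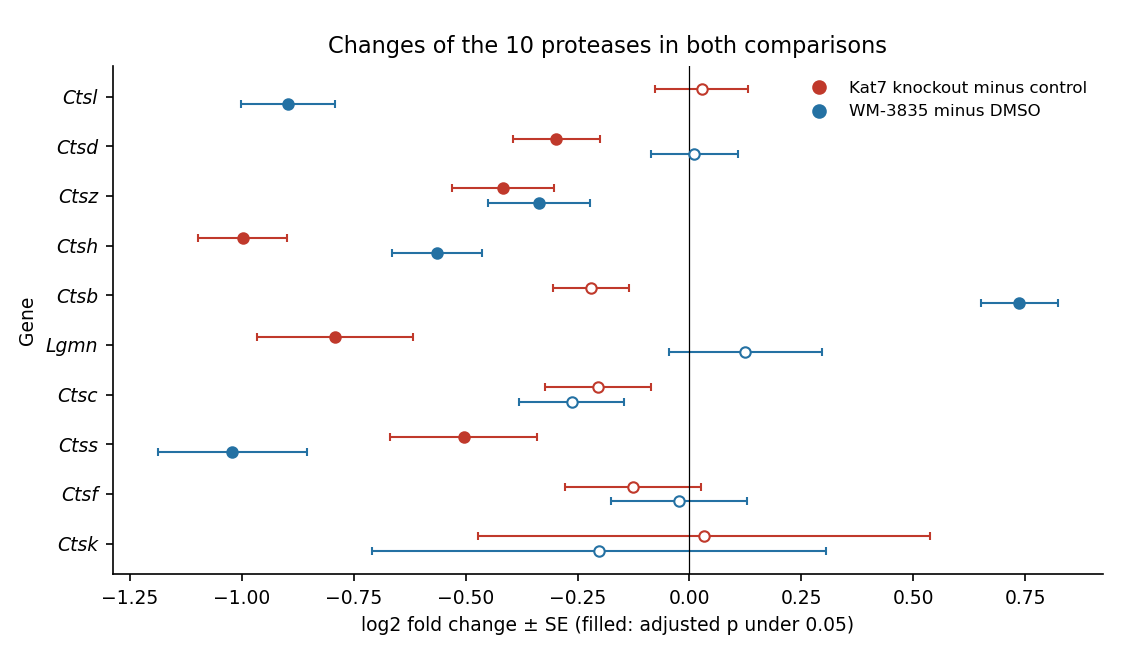
Log2 fold change of each protease with its standard error, for knockout minus control and for WM-3835 minus DMSO; filled points have an adjusted p under 0.05. Ctsh, Ctsz and Ctss are filled to the left of 0 in both, Ctsl and Ctsb are filled for WM-3835 and open for the knockout, and Lgmn and Ctsd the other way round.

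Set side by side, Ctsh, Ctss and Ctsz were called lower both in the knockout and with WM-3835, Lgmn and Ctsd were called lower in the knockout, Ctsl was called lower and Ctsb higher with WM-3835, and Ctsc, Ctsf and Ctsk were called in neither. Whether the changes differed was tested as the knockout change minus the WM-3835 change, for which 10.1% of all genes were called, 4.41% higher and 5.69% lower. Of the 10 proteases 3 were called: Ctsb (-0.96, SE 0.120, adjusted p = 4.68e-05), Ctsl (0.92, SE 0.148, adjusted p = 4.42e-04) and Lgmn (-0.92, SE 0.243, adjusted p = 0.0200, edgeR). The differences of Ctsb and Ctsl held under all 22 alternatives. That of Lgmn ended in 8 of 22, among them knockout library 3 alone (-1.04, adjusted p = 0.0858), the Xist covariate (-1.09, adjusted p = 0.0872), and the fits without knockout library 1 (adjusted p = 0.0693) or 3 (0.0587), without control library 1 (0.0583), without WM-3835 library 3 (0.0629) and without DMSO library 2 (0.0647) or 3 (0.0521).

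The difference did not pass the test for Ctsh (-0.43, interval -0.73 to -0.14, adjusted p = 0.0579, edgeR) or Ctss (0.52, interval 0.03 to 1.01, adjusted p = 0.185). For Ctsd it was -0.31 (interval -0.60 to -0.02, adjusted p = 0.178). That of Ctsh was called with DESeq2 (adjusted p = 0.0391) and without WM-3835 library 1 (-0.51, adjusted p = 0.0380), and that of Ctsd without control library 3 (-0.43, adjusted p = 0.00773). The Ctsh decrease was the larger in the knockout and the Ctss decrease the larger with WM-3835, but neither inequality passed in the fit over all libraries. A shared or a different size of effect can thus not be stated for these genes.

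**Figure D3:**
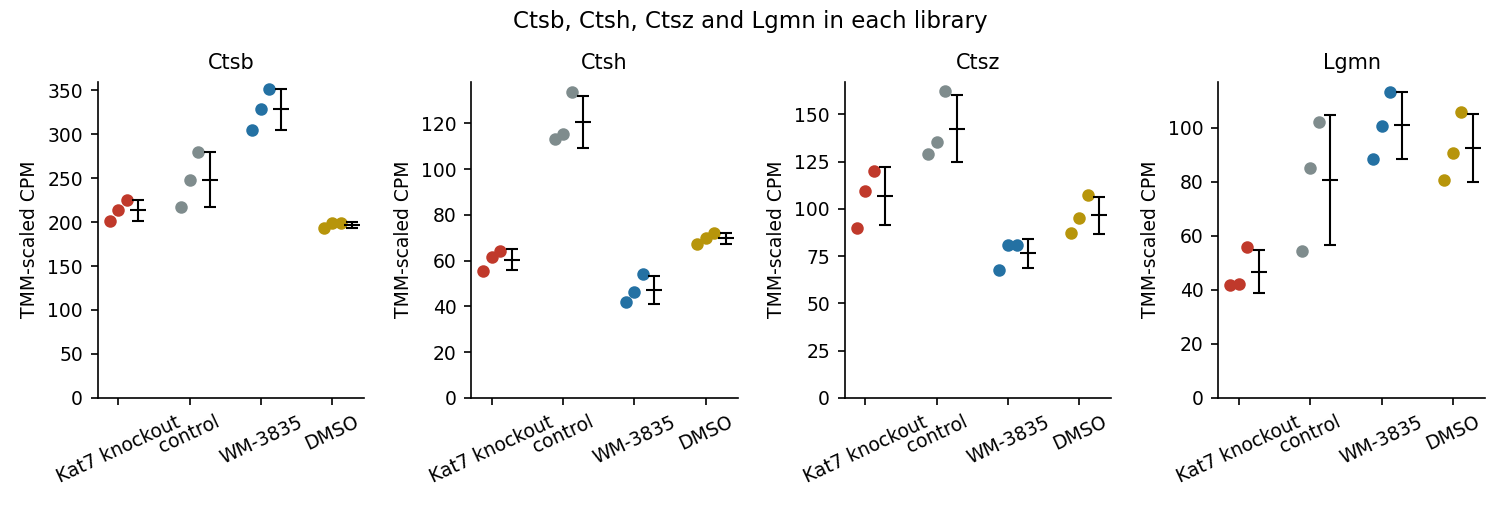
TMM-scaled CPM of Ctsb, Ctsh, Ctsz and Lgmn in each library (points), with the mean and SD of each group beside them (n = 3). Ctsb is high in WM-3835 libraries, Ctsh is low in knockout and WM-3835 libraries relative to their own comparison groups, and the control libraries of Lgmn are spread from 54.5 to 102 CPM.

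The 2 groups that served for comparison also differed from each other. Relative to control, DMSO libraries had higher Ctsl (log2 fold change 0.65, adjusted p = 1.31e-04) and lower Ctsh (-0.79, adjusted p = 9.95e-06), Ctsz (-0.56, adjusted p = 0.00123), Ctsb (-0.33, adjusted p = 0.00720) and Ctsd (-0.28, adjusted p = 0.0422, edgeR), while 24.6% of all genes were called, 11.4% higher and 13.3% lower. The 3 DMSO libraries all lay above control for Ctsl and all below it for Ctsb, Ctsh and Ctsz, as 19.6% of all genes did upward and 19.4% downward. The genotype label, tamoxifen, the DMSO solvent and Xist all differ between these groups and cannot be told apart. In the same comparison 4 of 10 cortical markers were higher and none lower, 4 of 12 medullary markers were higher and 8 lower, and 5 of 15 macrophage and dendritic cell markers and 5 of 10 fibroblast markers were lower, with 1 fibroblast marker higher; their part in these differences was not tested. With Xist as a covariate, 1 of these 5 calls, that of Ctsh, was left (adjusted p = 0.0444).

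The contrast between cortical Ctsl and medullary Ctss was measured in each library as the log2 ratio of their RPKM. It was 6.89, 6.92 and 7.22 in knockout libraries, against 6.23, 6.66 and 6.46 in control libraries. All knockout libraries lay above all control libraries, and the mean difference was 0.56, a 1.47-fold higher ratio (knockout 7.01 ± 0.18, control 6.45 ± 0.22, SD, n = 3 each; two-sided exact permutation p = 0.1, the smallest that 3 against 3 allows). The ratio was 7.33 ± 0.09 in WM-3835 libraries and 7.21 ± 0.29 in DMSO libraries (difference 0.12, exact permutation p = 0.6), with overlapping groups. In the knockout the ratio was higher with Ctss called lower and Ctsl near its control level, whereas with WM-3835 both genes were lower and the ratio moved by less than the spread of the DMSO libraries.

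**Figure D4:**
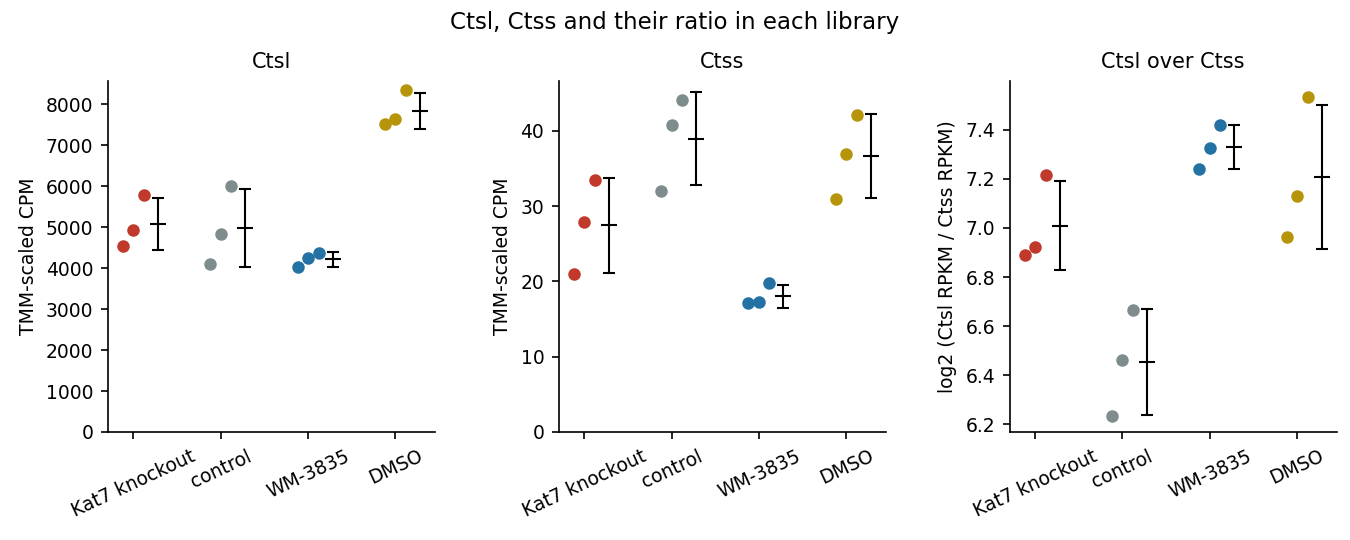
Ctsl and Ctss in TMM-scaled CPM and the log2 ratio of their RPKM in each library (points), with the mean and SD of each group (n = 3). Ctsl is high in DMSO libraries (7530 to 8355 CPM), Ctss is low in WM-3835 libraries (17.1 to 19.8 CPM), and the ratio is lowest in control libraries; the axis of the ratio does not start at 0.

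Some of the 10 cortical and 12 medullary marker genes also changed, and not always in the direction of Ctsl or Ctss. In the knockout, 5 of 10 cortical markers were higher and none lower, and their summed level was 7798 to 9186 CPM in knockout and 4695 to 8217 CPM in control libraries; with WM-3835, 8 of 10 were lower and 1 higher, at 3540 to 5500 CPM in WM-3835 and 7220 to 8825 CPM in DMSO libraries. Of the 12 medullary markers, 4 were lower and none higher in the knockout (6526 to 6692 CPM in knockout, 7083 to 7496 CPM in control libraries), and 4 were lower and 3 higher with WM-3835 (4419 to 4603 CPM in WM-3835, 5014 to 5778 CPM in DMSO libraries). Among all genes tested, 6.12% were higher and 8.06% lower in the knockout, and 9.34% higher and 9.35% lower with WM-3835. Krt5 was the highest of the 12 medullary markers, at 4588 CPM in knockout, 4879 CPM in control, 2497 CPM in WM-3835 and 2935 CPM in DMSO libraries. Krt5 and Epcam also belong to the epithelial markers. Aire averaged 556 CPM in WM-3835 and 1199 CPM in DMSO libraries, and Epcam 773 and 541 CPM, so the sums combine opposite moves. With WM-3835 Ctsl was lower together with most cortical markers, whereas in the knockout the median cortical marker was at 0.53 and Ctsl at 0.03 (log2 fold changes). The part of these markers in the Ctsl and Ctss results was not tested.

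Macrophages and dendritic cells also make Ctss, Ctsh, Ctsb and Lgmn in quantity, so their 18 markers are given beside these genes. They summed to 71.5 to 89.4 CPM in knockout and 86.6 to 155 CPM in control libraries, and to 64.6 to 67.1 CPM in WM-3835 and 54.7 to 78.4 CPM in DMSO libraries. In the knockout 1 of the 15 tested was lower and none higher, and with WM-3835 1 was lower and 1 higher. For these and the other lineage counts below, 8.06% of all genes were lower and 6.12% higher in the knockout. With WM-3835 these shares were 9.35% and 9.34%. Lyz2, Cd14 and Mrc1 had the highest means of the 18 in every group. Lyz2 averaged 30.9 CPM in knockout, 61.2 CPM in control, 22.2 CPM in WM-3835 and 32.4 CPM in DMSO libraries. In the same order Cd14 averaged 11.2, 14.8, 20.8 and 4.17 CPM, and Mrc1 averaged 12.7, 13.5, 3.59 and 7.38 CPM. Siglech was at 0 in all knockout, control and WM-3835 libraries, Cx3cr1 was at 0 in all knockout libraries and Clec9a at 0 in all control libraries, and Xcr1 stayed under 1 CPM in every library. Fibroblast markers summed to 91.9 to 118 CPM in knockout and 143 to 219 CPM in control libraries, and to 79.8 to 95.6 CPM in WM-3835 and 86.2 to 104 CPM in DMSO libraries. Thymocyte markers summed to 11.2 to 16.4 CPM in knockout and 23.3 to 29.1 CPM in control libraries, and to 14.1 to 16.4 CPM in WM-3835 and 17.4 to 19.5 CPM in DMSO libraries. B cell markers stayed under 10 CPM in sum in every library. Endothelial markers summed to 6.20 to 10.6 CPM in knockout and 8.42 to 20.7 CPM in control libraries, and to 1.61 to 3.09 CPM in WM-3835 and 2.41 to 3.93 CPM in DMSO libraries. The highest of them, Tek, averaged 8.05 CPM in knockout, 14.1 CPM in control, 1.55 CPM in WM-3835 and 1.71 CPM in DMSO libraries. In the knockout 3 of 10 fibroblast and 1 of 4 thymocyte markers tested were called lower and none higher. With WM-3835, 2 of 10 fibroblast markers were lower and 1, Pdgfra, was higher (18.5 ± 3.76 CPM in WM-3835, 1.06 ± 0.246 CPM in DMSO libraries), and 1 of 4 thymocyte markers was lower. No B cell or endothelial marker was called in the knockout or with WM-3835. The part of these lineages in the changes of Ctsh, Lgmn, Ctss and Ctsb was not tested.

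Start-site windows of Ctsl and Ctss are shown because the 2 genes were contrasted and moved together with WM-3835. The windows hold 300 bases around a RefSeq start site on GRCm38.p6, most of them before it, at chr13:64370471-64370770 on the minus strand for Ctsl and at chr3:95526536-95526835 on the plus strand for Ctss. The annotated span of Ctsl begins further upstream, at chr13:64370772, so the whole Ctsl window lies inside the gene. Capitals mark CACGTG, the core of the element bound by TFEB, the regulator of lysosome genes, and, in Ctss, GAAA repeated after 2 further bases, a form of the interferon response element, both searched on both strands.
Ctsl: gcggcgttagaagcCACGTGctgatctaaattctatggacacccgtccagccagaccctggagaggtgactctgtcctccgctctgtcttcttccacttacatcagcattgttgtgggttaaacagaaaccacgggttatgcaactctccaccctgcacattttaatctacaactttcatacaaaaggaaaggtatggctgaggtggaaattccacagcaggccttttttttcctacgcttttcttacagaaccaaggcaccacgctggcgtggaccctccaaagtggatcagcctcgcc
Ctss: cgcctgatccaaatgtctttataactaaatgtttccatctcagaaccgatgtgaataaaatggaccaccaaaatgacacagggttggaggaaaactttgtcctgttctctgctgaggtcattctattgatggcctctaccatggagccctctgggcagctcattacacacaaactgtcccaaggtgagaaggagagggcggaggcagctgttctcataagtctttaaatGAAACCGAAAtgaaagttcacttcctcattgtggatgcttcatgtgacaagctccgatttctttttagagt
CACGTG began at position -236 relative to the start site of the Ctsl window and the spaced GAAA repeat at -21 in Ctss, and each window lacked the other motif. Among 32851 such mouse windows, 7.15% held CACGTG and 3.44% held the spaced GAAA repeat. CACGTG was also in the windows of Ctsd (at 2 positions) and Ctsf (at -79) and in that of the second Lgmn start site (at -49). The longer form TCACGTG, searched on both strands, was in the windows of Ctsd and of the second Lgmn start site. The Ctsl and Ctsf windows lacked it, and 3.765% of the mouse windows held it. These matches describe the letters of the windows and not binding. Ctsb and Ctsh had no matched window.

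Over the 12 libraries, the genes whose log2 CPM was most like that of Ctsl were Cdk20 (Pearson r = 0.97), Slc39a11 (0.97), Angptl6 (0.94), Parp3 (0.94) and Slc46a2 (0.94). Those most like Ctss were Pcp4l1 (0.96), Trp63 (0.95), Rnf113a1 (0.94), Atp2b2 (0.94) and Ankrd29 (0.94). The libraries fall into 4 groups, so these values describe the group pattern as much as the spread within groups. Since the genes were picked for this likeness, their own changes between the groups follow from the choice. Trp63 encodes p63, a regulator of epithelial progenitors. Between the members themselves, Ctsl and Ctss had r = 0.63, Ctsl and Ctsb -0.69, and Ctss and Ctsh 0.75.

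The remaining genes of the lysosome and of class II antigen processing changed in both directions. Of 106 such genes tested, 13 (12.3%) were higher and 14 (13.2%) lower in the knockout, where 6.12% and 8.06% of all genes were. With WM-3835, 12 (11.3%) were higher and 13 (12.3%) lower, where 9.34% and 9.35% of all genes were. Most of the knockout calls were lost in the fits that take account of Xist: with it as a covariate 0 were higher and 1 lower, and with knockout library 3 alone 0 were higher and 3 lower. H2-DMb2 was called under both, Cst3 and Laptm5 with knockout library 3 alone, and the other 24 pathway genes called in the knockout under neither. Of the 13 cathepsins outside the 10 members, 5 were tested, and none was called in either comparison. Ctsa, the serine carboxypeptidase that protects lysosomal sialidase, was the highest of them, at 252 ± 15.9 CPM in knockout and 256 ± 23.8 CPM in control libraries and at 382 ± 31.7 CPM in WM-3835 and 437 ± 21.3 CPM in DMSO libraries (log2 fold change -0.19 with WM-3835, adjusted p = 0.121). Of the 9 cystatins tested, which inhibit cysteine cathepsins, Cst3 (cystatin C) was lower in the knockout, at 102 ± 3.10 CPM in knockout and 142 ± 12.9 CPM in control libraries (-0.48, adjusted p = 5.65e-04; -0.48 and adjusted p = 0.0535 with Xist as a covariate). Cst8 was also called lower there but had no count in knockout libraries and 0.286 CPM in control libraries, and no cystatin was called with WM-3835.

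Lysosomal hydrolases other than cathepsins and legumain were called about as often as all genes, 12.9% of them in the knockout and 16.1% with WM-3835. In the knockout 3 of 31 were higher, among them Idua (0.79) and Galns (0.55), and 1 was lower (Arsb -0.35). With WM-3835, 4 of 31 were higher, with Galns at 0.79 (adjusted p = 0.00163) and Man2b1 at 0.34 (adjusted p = 0.0217), and 1 was lower. Of 19 lysosomal membrane and activator proteins, 6 were higher and 2 lower in the knockout, with Lamp2, a main membrane protein of lysosomes, at 0.36 (adjusted p = 0.00247; 0.23 and adjusted p = 0.258 with Xist as a covariate), and Laptm5 (-0.79) and Gm2a (-0.59) lower. Calls made up 42.1% of the 19 in the knockout and 26.3% with WM-3835, where 14.2% and 18.7% of all genes were called. For the knockout, none of the 19 was called with Xist as a covariate, and on the 6 libraries alone 1 was higher and 2 lower. With WM-3835, 4 were higher and 1 lower, with Cd68, a LAMP family protein, at 1.04 (18.6 ± 2.28 CPM in WM-3835, 9.01 ± 1.21 CPM in DMSO libraries, adjusted p = 2.29e-04), and Psap, the saposin precursor, at 0.29 (adjusted p = 0.00405).

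Of the 16 subunits of the proton pump that acidifies lysosomes, 2 were higher in the knockout (Atp6ap1 0.35 and Atp6v0a2 0.28). With WM-3835 1 was higher (Atp6v0e 0.22) and 2 lower (Atp6v0a1 -0.31 and Atp6v0b -0.24). The subunits were called about as often as all genes: 12.5% against 14.2% in the knockout and 18.8% against 18.7% with WM-3835. Of 10 genes of lysosomal sorting and biogenesis, Gnptab, which makes the mannose 6-phosphate sorting tag, was higher in the knockout (0.30, adjusted p = 0.0344). With WM-3835, Tfeb stood at 29.5 ± 1.84 CPM, against 15.49 ± 1.69 CPM in DMSO libraries (0.93, adjusted p = 4.98e-05), and Igf2r, a receptor that carries tagged hydrolases, was also higher (0.51, adjusted p = 3.30e-04). Calls made up 10% of this sorting list in the knockout and 20% with WM-3835, near the shares of all genes.

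The partners of these proteases in class II loading included members called lower in both comparisons. In the knockout 8 of 11 were lower, against 8.06% of all genes, and none higher (median log2 fold change -0.25); 1 was lower under the Xist covariate and 1 when knockout library 3 stood alone. With WM-3835 6 of 11, against 9.35% of all genes, were lower and none higher (median -0.33). H2-DMb2, a chain of the peptide editor H2-DM whose counts may be mixed with those of its close copy H2-DMb1, was at -0.87 in the knockout (adjusted p = 2.80e-05; -0.92 and adjusted p = 0.00997 with Xist as a covariate) and at -1.04 with WM-3835 (adjusted p = 1.42e-06). H2-Ab1, a chain of the class II molecule itself, was at -0.60 with WM-3835 (adjusted p = 5.43e-05) and at -0.25 in the knockout (adjusted p = 0.0510). H2-Ob, a chain of the inhibitor of that editor, was at -1.47 in the knockout (adjusted p = 0.0178; 0.246 with Xist as a covariate) and at -2.69 with WM-3835 (adjusted p = 2.05e-04). Cd74, the invariant chain that Ctsl and Ctss cut, was at -0.23 in the knockout (4293 ± 179 CPM in knockout, 5029 ± 447 CPM in control libraries, adjusted p = 0.0366; 0.496 with Xist as a covariate) and at -0.06 with WM-3835 (5591 ± 420 CPM in WM-3835, 5844 ± 287 CPM in DMSO libraries, adjusted p = 0.622).

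Cortical TECs use other special proteases as well. Prss16, their serine protease for class II peptides, averaged 4085 ± 321 CPM in knockout and 2594 ± 769 CPM in control libraries (log2 fold change 0.66, adjusted p = 0.0246; 0.275 with Xist as a covariate), and 1484 ± 467 CPM in WM-3835 and 3091 ± 454 CPM in DMSO libraries (-1.06, adjusted p = 5.11e-04). Psmb11, the thymoproteasome subunit for class I peptides, was at -1.26 with WM-3835 (adjusted p = 9.52e-04) and did not pass in the knockout (0.45, adjusted p = 0.230). Psmb8, a subunit of the immunoproteasome, was lower in the knockout (-0.29, adjusted p = 0.0362; -0.07 and adjusted p = 0.816 with Xist as a covariate) and higher with WM-3835 (0.42, adjusted p = 0.00236, edgeR throughout).

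**Figure D5:**
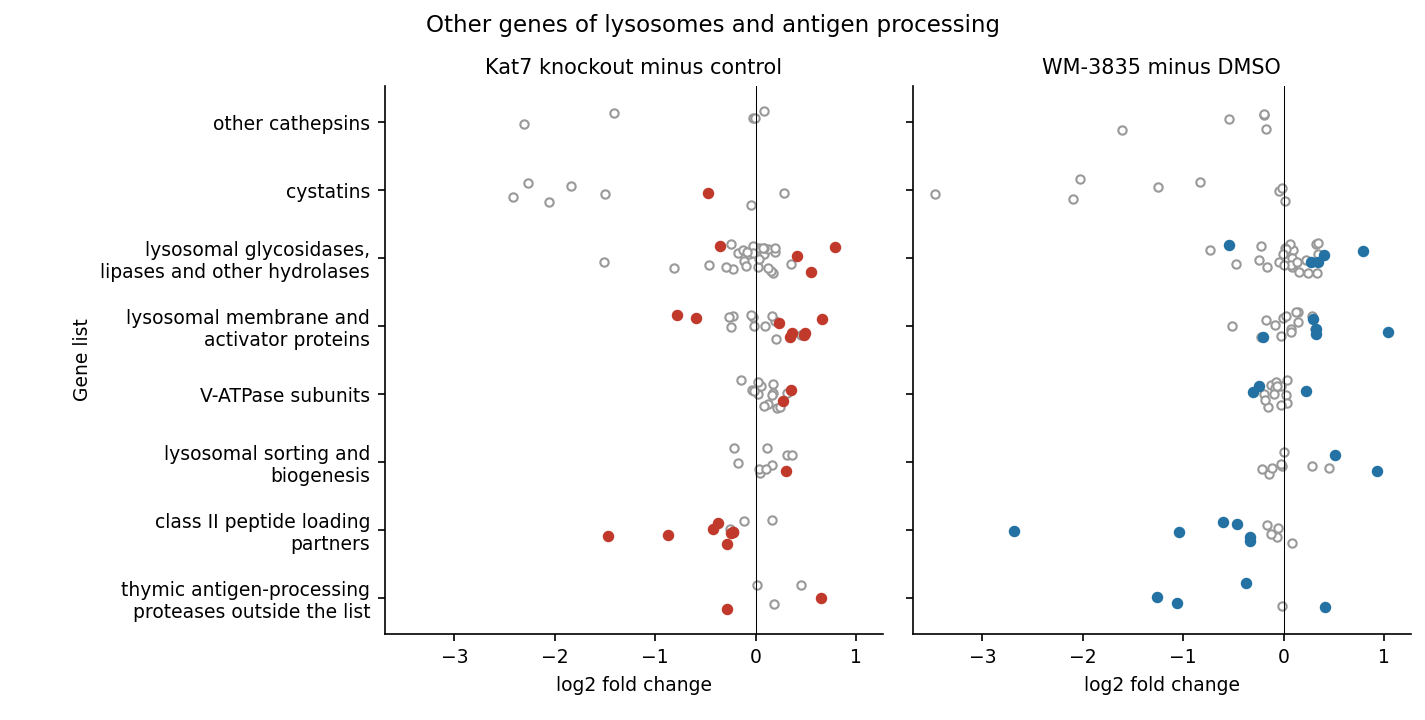
Log2 fold change of each tested gene in 8 lists of lysosome and antigen-processing genes (1 point per gene, 105 drawn in each panel), for knockout minus control and WM-3835 minus DMSO; filled points have an adjusted p under 0.05. Cst8 and Stfa2, with no count in 1 of the groups compared, are each left out of a panel, and 8 class II partners in the knockout and 6 with WM-3835 are filled to the left of 0.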

How the data were processed

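RNA sequencing of sorted TECs gave 12 libraries. The deposited values are raw counts per gene, made by the authors; the submitters' processing notes name featureCounts and mm10. Aligner, annotation, strand setting and whether a pair counts once: not given in the sources used here. Per the file headers, each row gives an Entrez ID, a length, a symbol and counts. The 1312 of 27179 genes without a symbol (0.657% to 0.743% of counts) were left out. edgeR 4.0.16 (R 4.3.3) was used with TMM scaling, filterByExpr (18670 genes), a quasi-likelihood fit of 4 group means over all 12 libraries, and Benjamini-Hochberg adjustment over all genes, two-sided, threshold 0.05. The CPM and RPKM are TMM-scaled; RPKM uses the deposited gene lengths. Correlations used log2 CPM with a prior count of 2. The ratio was tested by exact permutation. The fit was tested on simulated counts. Alternatives used DESeq2 1.42.0, limma 3.58.1, other scalings, filters, covariates and left-out libraries; fits with 1 library in a group assume that it varies like the others. Replicates did not differ less than sampling noise allows (8.62 to 51.8 times counting variance). Promoter windows come from RefSeq GRCm38.p6 and gene models from GENCODE.

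Members and gene lists were chosen with earlier results of these data known. All members are described. Of each list, up to 3 genes with the smallest adjusted p per comparison are named, and the 5 genes most correlated with Ctsl and with Ctss (mean log2 CPM of at least 1). Cd74, Arsb, Pdgfra and the other cell type markers given by name fall outside that rule and were chosen after their values were seen. Some items that the rule covers are not reported here.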

Additional observations from a re-analysis of the deposited data

Results flagged for a closer look

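For 3 of the 10 proteases the change in the knockout differed from the change with WM-3835 by the test of the difference itself (edgeR, adjusted over all genes), with 3 libraries in each of the 4 groups. For Ctsb the difference was -0.96 on the log2 scale (adjusted p = 4.68e-05), with all 3 WM-3835 libraries above the 3 DMSO libraries and the knockout libraries overlapping the control libraries. For Ctsl it was 0.92 (adjusted p = 4.42e-04), with all 3 WM-3835 libraries below the 3 DMSO libraries and overlap between knockout and control. For Lgmn it was -0.92 (adjusted p = 0.0200), with 1 knockout library inside the control range and overlap between WM-3835 and DMSO. The 2 reference groups also differed. DMSO libraries had higher Ctsl (log2 fold change 0.65, adjusted p = 1.31e-04) and lower Ctsb (-0.33, adjusted p = 0.00720, edgeR) than control libraries. For Lgmn they did not differ by that test (0.20, adjusted p = 0.455). Genotype label, tamoxifen, solvent and Xist differ between these groups and cannot be told apart.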

How the results depend on the processing

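Direction and call of Ctsh in the knockout held in all 17 alternatives, and those of Ctsb, Ctsh, Ctsl and Ctss with WM-3835 in all 16. Over all genes tested, deviations of same-numbered replicates were nearly uncorrelated (-0.003 to 0.008 for knockout and control, -0.002 to 0.070 for WM-3835 and DMSO). Such a correlation cannot show whether single genes share a replicate pattern. Prss16, for example, was highest in replicate 2 of every group. Whether the replicate numbers pair the samples is not known. With the replicate block, Ctsd in the knockout lost its call (-0.28, adjusted p = 0.0710), leaving 4 members lower, and no other member's call changed in the comparisons it was run for. The number of members called lower in the knockout (5) was 2 on 6 libraries, 2 with quality weights, 1 with the Xist covariate, 2 with knockout library 3 alone and 2 to 6 without single libraries. For the difference of the changes, 2 called lower became 1 with the Xist covariate, 1 with knockout library 3 alone and 1 to 3 without single libraries. For DMSO against control, the Xist covariate left 0 higher and 1 lower, and leaving out single libraries 2 to 4 lower. Pathway genes higher in the knockout (13) numbered 4 on 6 libraries, 4 with quality weights, 0 with the Xist covariate, 0 with knockout library 3 alone and 6 to 18 without single libraries; those lower (14) numbered 6 with quality weights, 1 with the Xist covariate, 3 with knockout library 3 alone and 4 to 13 without single libraries. With WM-3835, those higher (12) numbered 19 with quality weights and 6 to 8 without single libraries, and those lower (13) 21 on 6 libraries, 23 with quality weights and 8 to 12 without single libraries. Across all genes, 2646 were called in the knockout, 1157 on 6 libraries, 1180 with quality weights, 483 with the Xist covariate and 704 with knockout library 3 alone; with WM-3835, 3490 were called, 6070 on 6 libraries and 6589 with quality weights. Upper-quartile scaling put 60.1% of the WM-3835 calls lower, against 50.03% with TMM. The causes were not tested.

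Estimates that reversed had not passed the test. Ctsd with WM-3835 was -0.01 with RLE (-0.00631), DESeq2 (-0.00629), the CPM filter (-0.00693) and no filter (-0.0133), -0.038 with upper-quartile scaling, and -0.042 to 0.047 without single libraries. Ctsf in DMSO against control was -0.02 with RLE (-0.0154), DESeq2 (-0.0154) and upper-quartile scaling (-0.0199), -0.01 with the CPM filter (-0.0129) and on 6 libraries (-0.00913), -0.27 with the Xist covariate, and -0.13 to 0.16 without single libraries. With the Xist covariate, Ctsc was 0.038 and Ctsl -0.14 in the knockout, Ctsc 0.20, Ctsk 0.30 and Lgmn -0.052 in DMSO against control, and Ctsz 0.16 in the difference of the changes. With knockout library 3 alone, Ctsc was 0.054 and Ctsl -0.13 in the knockout, and Ctsz 0.11 in the difference. Without single libraries, the knockout changes ran from -0.26 to 0.024 for Ctsf, -0.18 to 0.38 for Ctsk and -0.083 to 0.20 for Ctsl; the WM-3835 changes from -0.11 to 0.082 for Ctsf and -0.49 to 0.16 for Ctsk; the differences from -0.071 to 0.19 for Ctsc, -0.23 to 0.054 for Ctsf, -0.11 to 0.59 for Ctsk and -0.17 to 0.044 for Ctsz; and DMSO against control from -0.43 to 0.27 for Ctsk, -0.20 to 0.030 for Ctss and -0.00088 to 0.42 for Lgmn. The Ctsl to Ctss ratio with WM-3835 ran from -0.0026 (without DMSO library 2) to 0.28.

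Depth limits Ctsk, with 36 to 111 counts a library. With 3 libraries a group, small changes remain uncertain, and in the knockout comparison knockout library 3 alone had an Xist level near that of the control libraries.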
